A study of Homo sapiens with 11 samples.

Results

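RT4 is a cell line from a human bladder transitional cell papilloma, and crECM is the cancer-remodeled extracellular matrix Matrigel, a gel rich in laminin and collagen IV that is prepared from a mouse tumor. The first crECM array, taken 12 h after the cells were put on the gel, was set against the 8 crECM arrays of days 1, 2, 3, 4, 6, 7, 8 and 9, so 9 of the 11 arrays entered the comparison. The 2 arrays from RT4 cells on plastic served as the reference for where each gene had been. Before the crECM cultures the cells were trypsinized and taken up in McCoys medium with 10% fetal calf serum, then seeded on solidified Matrigel in culture inserts and later recovered with Matrisperse. All groups were the same cell line without any drug or transgene, every crECM time point was 1 array, and the labels give no culture time for plastic. Of 22464 spotted long-oligo probes, 20075 reached 3 SD on the deposited scale on at least 1 later array and were tested, and the other 2389 were left out. The tested probe nearest to that limit had a highest later value of 3.002 SD, and the nearest probe left out had 2.994 SD.

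Levels below are the antilog of the deposited log10 values and are written as SD. The authors scaled each array to the SD of its noise peak and then regressed the arrays on each other. An SD here is therefore a unit of that adjusted scale and not the noise SD of the single array. Differences are log2 (12 h minus the mean of the 8 later arrays) after values under 3 SD were set to 3 SD. For a gene under 3 SD at 12 h, or under 3 SD on later days, the difference is therefore only a lower bound of its size. A probe was called when limma's adjusted p was under 0.05, the difference was at least 2-fold and the 12 h value lay outside the range of all 8 later arrays. The single 12 h array was assumed to vary as the later arrays did, and these are time points and not replicates, so the p-values measure how far the 12 h array stood from the spread over days.

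As background, cells that are detached and replated lose and rebuild their contacts with neighbors and matrix. Replating and fresh serum are known to switch on immediate early genes such as FOS and EGR1 briefly, and growth factors act on ribosome production, which depends on the coordinated expression of the ribosomal protein genes. Urothelial cells are known for uroplakins and for keratins of simple epithelia, and their differentiation is driven by PPARG, GATA3 and FOXA1.

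The share of probes at 3 SD or more was similar on all arrays, between 83.9% and 86.6%. The 12 h array had a median raw intensity of 224, below the 250 to 482 of the later arrays and above the 140 and 162 of plastic. Its noise peak was the narrowest, with a raw SD of 20.7 against 26.0 to 37.6 on later days and 39.3 and 45.8 on plastic. For brighter probes the slope of deposited on raw log10 values was 0.68 and 0.66 on plastic, 1.06 at 12 h and 0.96 to 1.41 later. Plastic thus differed in raw background and scale from crECM, stayed out of the fit and served as a reference only. Among the epithelial markers KRT7 and KRT19 were bright everywhere, at 204 SD and 199.9 SD at 12 h, and KRT18 stood at 68.5 SD. Fibroblast, endothelial and leukocyte markers were also listed above noise, 9 of 10, 6 of 6 and 5 of 6 of them at 12 h, and no marker list had a member called at 12 h, so the array levels of such probes do not by themselves separate cell types. Summed over 19 urothelial markers the 12 h level was 818 SD, within the 783 to 1421 SD of the later arrays. For the other marker lists the 12 h sum was 226 SD for fibroblasts (203 to 240 SD later), 137 SD for endothelium (92.8 to 132 SD later) and 158 SD for leukocytes (172 to 195 SD later).

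The first comparison was of which genes stood apart at 12 h. Of the 20075 probes, 236 (1.18%) were called higher and 293 (1.46%) lower at 12 h than on the later days. In all, 429 probes were higher and 474 lower by the adjusted p alone, and the median difference over all tested probes was -0.02. Among the probes called higher, 182 were also at least 2-fold above both plastic arrays, which makes them peaks at 12 h, 48 were near the plastic level and 6 lay between plastic and later days. Among those called lower, 110 were at least 2-fold below both plastic arrays and so dipped at 12 h only, 135 were near the plastic level and 48 lay between. Near the plastic level is the remaining class: the 12 h value lay within the plastic range or less than 2-fold past it, in the direction of the call. SMAD7, at 14.3 SD against 25.1 and 23.3 SD on plastic, is counted there. Between needed no minimum distance, and PCDHGB4, at 34.9 SD against 37.1 and 39.4 SD on plastic, is counted as between. The balance of the calls depended on the scale of the arrays: 44.6% of called probes were higher on the deposited scale, 26.8% with values rebuilt from raw intensities, 65.6% after quantile normalization, 56.2% after cyclic loess and 31.8% with the floor at 1 SD. The 5 scalings were the deposited values, values rebuilt from raw intensities, quantile normalization, arrays centered on their median and cyclic loess. The floor of 1 SD is not among them. Under all 5 scalings 67 probes were called higher and 72 lower. The classes that use plastic moved too: with values rebuilt from raw intensities there were 17 dips, and 133 probes called lower lay between.

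The 2 highest peaks were RPL39L and GCLC. RPL39L, a paralog of the ribosomal protein gene RPL39, was at 2403 SD at 12 h, against a lowest, median and highest later value of 17.4, 18.1 and 23.3 SD and plastic values of 13.8 and 16.5 SD (log2 difference 6.96 ± 0.17 SE, limma adjusted p = 9.11e-08). GCLC, the catalytic subunit of the enzyme that limits glutathione synthesis, was at 1312 SD against 17.9, 33.4 and 36.2 SD later and 27.5 and 29.7 SD on plastic (5.46 ± 0.33, adjusted p = 2.48e-05). Neither gene's 12 h value came near any other array, and in cultures taken whole a change in the share of cells that express a gene and a change in its RNA per cell cannot be told apart. NXF3, a member of the nuclear RNA export factor family, stood at 574 SD against 17.02 to 23.7 SD later and 22.8 and 17.1 SD on plastic. Its other probe differed by -0.09, so the peak was seen with 1 of its 2 probes. SS18, a subunit of the BAF chromatin remodeling complex, was at 596 SD against 17.9 to 24.1 SD later. DUS1L, which is related to the tRNA dihydrouridine synthases, was at 155 SD against 4.04 to 9.23 SD, and TBCK was at 86.8 SD while 7 of its 8 later values and both plastic values were below 3 SD. RPL39L, GCLC, NXF3, SS18 and DUS1L were called under all 5 scalings. TBCK was not tested after quantile normalization. Day 2, at 3.73 SD, was its only later value above 3 SD, so TBCK was also not tested without day 2 or with a filter of at least 4 later arrays. It kept its call in all 16 alternatives in which it was tested.

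In 3 further genes among the largest rises, day 1 was intermediate. PCLO, a scaffold protein of the presynaptic active zone, was at 320 SD at 12 h, 43.7 SD on day 1 and at most 17.3 SD from day 2 on, with both plastic arrays under 3 SD (5.06 ± 1.21, adjusted p = 0.047). RAB11FIP3, an effector of the recycling endosome GTPase Rab11, was at 177 SD at 12 h and 39.0 SD on day 1 and between noise and 7.74 SD afterwards. HOOK3, an adaptor that links cargo to dynein, was at 110 SD at 12 h, 33.2 SD on day 1 and no more than 5.21 SD afterwards. In all 3 genes the day 1 value lay below the 12 h value and above every later one. Their calls were less stable than those of the genes above: PCLO and RAB11FIP3 each lost theirs in 9 of 19 alternatives and HOOK3 in 10 of 18, most of them the omission of 1 later array other than day 1. Rises of similar size not described here include SH2D3A (4.60) and SFRP5 (4.31). The same order was frequent among the probes called higher: for 103 of the 236 (43.6%) the highest of the later values was that of day 1, whereas day 1 held the highest later value for 12.1% of all tested probes. Among the probes called lower the lowest later value was that of day 1 for 27 of 293, and most often that of day 7 (27.0%) or day 9 (25.6%), against 15.4% and 12.4% of all tested probes.

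**Figure D1:**
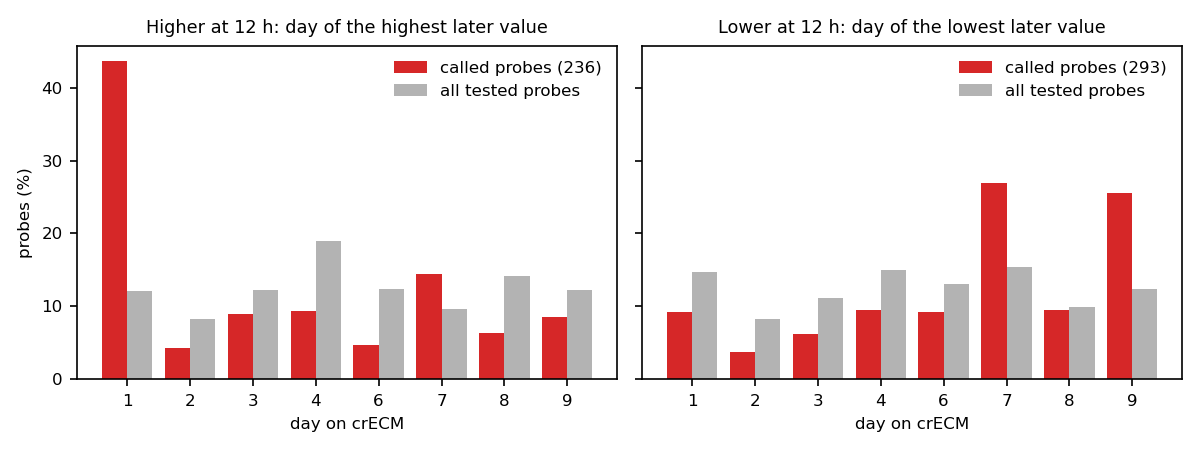
Share of probes (%, vertical axis) by the day on crECM (horizontal axis) that held the highest later value of the 236 probes called higher at 12 h (left) or the lowest later value of the 293 called lower (right), red, beside the same share over all tested probes, gray. Day 1 held the highest later value of 43.6% of the probes called higher, against 12.1% of all probes.

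Among genes named by 1 symbol, the 8 largest falls were all dips. NRSN1, TMEM163, CASTOR3P, HTR1D, POP5 and VPS13D were each below 3 SD at 12 h and at 19.8 SD or more on every other array, and ALX1 (-3.41) and PREX1 (-3.27) were the others. NRSN1, which encodes the neuronal membrane protein neurensin, had later values of 31.7, 39.0 and 42.6 SD (lowest, median and highest) and plastic values of 44.2 and 47.2 SD (difference -3.64 ± 0.17, adjusted p = 4.00e-06). HTR1D, a serotonin receptor, had 20.5 to 32.4 SD later and 31.9 and 32.4 SD on plastic. POP5, a subunit of RNase P and RNase MRP, had 20.6 to 34.0 SD later, and VPS13D, a lipid transfer protein, 19.8 to 28.5 SD. A second VPS13D probe differed by 0.24 and a second CASTOR3P probe by 0.37, both in the other direction. PREX1, an exchange factor for Rac, stood at 3.72 SD against 31.1 to 44.3 SD later and 22.1 and 18.6 SD on plastic, and ALX1, a homeobox gene, was below 3 SD against 26.5 to 39.6 SD later. In these genes the 12 h array was the only one of 11 at or near noise.

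**Figure D2:**
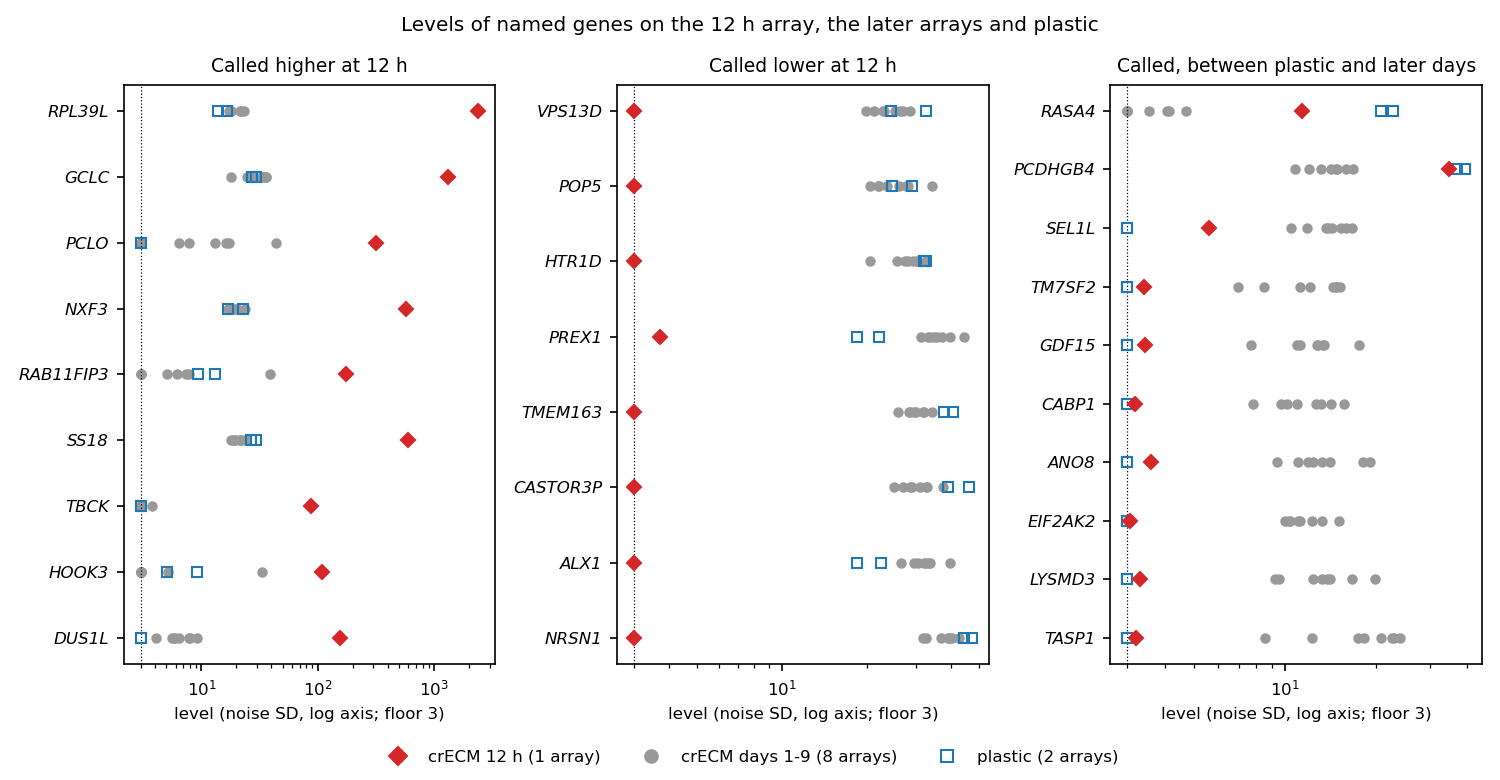
Level (noise SD of the deposited scale, log axis, values under 3 SD drawn at 3) of the genes with the largest differences at 12 h and of the named genes between plastic and later days, for the 12 h array (red), the 8 later crECM arrays (gray) and the 2 plastic arrays (blue squares). RPL39L at 12 h stood at 2403 SD against at most 23.3 SD later, whereas NRSN1 was below 3 SD at 12 h against at least 31.7 SD later.

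Properties of the spots went with these calls. When the probe number was read as a position on the slide, 119 of the 293 probes called lower (40.6%) adjoined another probe called lower, against 8.43% of all tested probes, and for the probes called higher it was 33 of 236 (13.98%) against 7.47%. The spots of RPL39L, SS18 and NME8 adjoin one another, and NME8, a thioredoxin domain protein of cilia, was called higher too (4.29). NRSN1, ALX1, PREX1, HTR1D, POP5 and VPS13D each had a neighbor called lower, and the spot of FADS1, described below, adjoins that of RPL39L. GCLC, LAMA2, HSPA4, HES1, EIF2AK2 and FADS1 also had a neighbor called in their own direction. Raw intensities at 12 h were far below the noise peak, by more than 3 of its SD, for 18 of the 293 probes called lower and for 40 of all tested probes. NRSN1 had a raw value of -487, POP5 -528, TMEM163 -251 and CASTOR3P -852. Without the probes that adjoin a called probe, 190 were called higher and 147 lower, and the dips numbered 41. Of 55 further probes for 37 of the genes called higher, 26 differed upward and none was called higher (median -0.01), and of 77 further probes for 47 of the genes called lower, 56 differed downward and none was called lower (median -0.21). The part of slide position in the calls was not tested beyond these counts.

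The next question was which genes had gone only part of the way from plastic to the later state. The named genes between plastic and later days among those called lower were near noise at 12 h, off on plastic and on from day 1. TASP1, the protease that cleaves MLL proteins, was below 3 SD on both plastic arrays, at 3.21 SD at 12 h and at 8.53, 19.5 and 23.9 SD (lowest, median and highest) later (-2.44 ± 0.51, adjusted p = 0.028). GDF15, a stress-induced cytokine of the TGF-beta superfamily, was at 3.43 SD at 12 h against 7.70 to 17.5 SD later. EIF2AK2, which encodes the double-stranded RNA sensor PKR, was at 3.06 SD against a later median of 11.1 SD. LYSMD3, ANO8, a member of the anoctamin family, and CABP1, a neuronal calcium-binding protein, followed the same order with 12 h values of 3.30, 3.60 and 3.19 SD and later values of at least 9.26, 9.40 and 7.84 SD. SEL1L, an adaptor of ER-associated degradation, was at 5.58 SD against 10.4 to 16.6 SD, and TM7SF2, a sterol reductase of cholesterol synthesis, at 3.40 SD against 6.95 to 15.2 SD. Apart from SEL1L, the 12 h values of these genes were 3.06 to 3.60 SD, so little above the limit of 3 SD that a small shift would have put them at the plastic level. The calls of TASP1, GDF15, EIF2AK2, LYSMD3, ANO8, CABP1 and TM7SF2 were all lost both with values rebuilt from raw intensities and after quantile normalization, and that of SEL1L with rebuilt values and in 7 of 19 alternatives in all. In the opposite direction RASA4, a Ras GTPase-activating protein, was at 20.7 and 22.7 SD on plastic, 11.3 SD at 12 h and between noise and 4.67 SD later (1.70 ± 0.29, adjusted p = 0.014). PCDHGB4, a protocadherin of the gamma cluster, was at 34.9 SD at 12 h, close to the 37.1 and 39.4 SD of plastic, against 10.8 to 16.7 SD later. Both had a called neighbor on the slide and lost their call with rebuilt values. The 48 probes between plastic and later days among those called lower became 21 without the day 2 array, 28 without day 1, 30.0 without day 8 and 85 without day 7.

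Beyond the called genes, the position of the 12 h array was counted over all tested probes whose plastic arrays lay outside the later range, with at least a 3-fold difference between the means. The 12 h array took no part in choosing them. Of 1388 probes higher on later crECM, the 12 h value of 699 (50.4%, Wilson 95% interval 47.73 to 52.99%) lay within the later range and that of 143 (10.3%) above it, 477 (34.4%, 31.9 to 36.9%) lay between, 68 (4.90%) were within the plastic range and 1 was past plastic. The median probe of this set had covered 83.2% of its log2 step at 12 h on the deposited scale (quartiles 64.4 and 102%). Of 103 probes lower on later crECM, 69 (66.99%) lay within the later range, 5 below it, 22 between, 2 within the plastic range and 5 past plastic, and the median share of the step was 99.1%. The intervals cover counting error only and treat probes as independent. In 773 of the 1388 probes both plastic arrays were below 3 SD. The filter on later values left out probes that fell to under 3 SD on every later array, and none that rose. Without that filter, 76.4% and not 71.8% of the probes lower on later crECM were at or past the later range at 12 h.

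**Figure D3:**
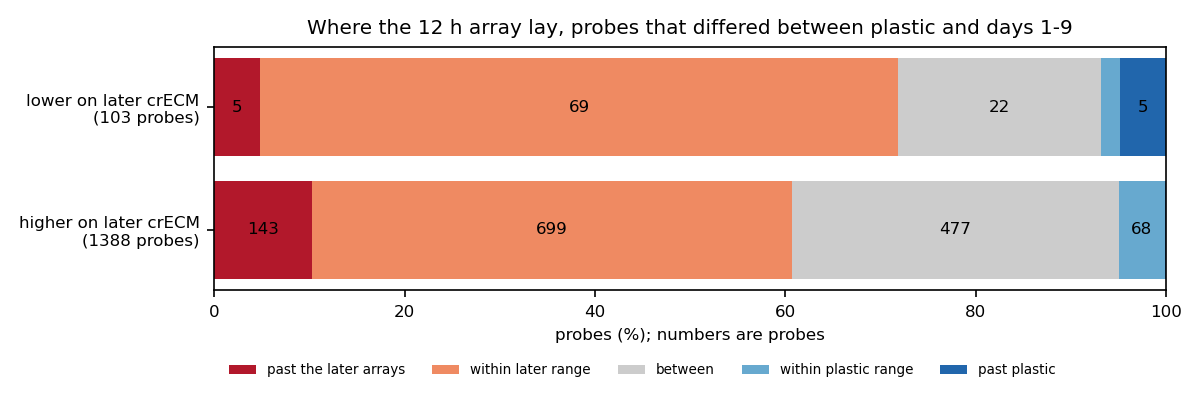
Position of the 12 h array for tested probes with at least a 3-fold difference between plastic and later crECM, as percent of probes (horizontal axis) in each direction, with the number of probes on the bars. Most bars lie at the later level at 12 h: 699 of 1388 probes higher on later crECM were within the later range and 477 were between.

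The genes named here were picked after their values were seen from the 6 largest steps of each position, and larger steps such as that of ZNF276 were passed over. WNT3A, a ligand of the canonical Wnt pathway, was at 2.92 and 4.06 SD on plastic, already at 39.9 SD at 12 h and at 26.2 to 45.5 SD later. SLC38A1, a glutamine transporter, went from noise on plastic to 26.0 SD at 12 h, within the 24.2 to 42.2 SD of later days, and DNA2, a helicase and nuclease of DNA replication, from noise to 27.1 SD. CHUK, the IKK-alpha kinase of the NF-kB pathway, was at noise on plastic, at 34.2 SD at 12 h and at 40.3 to 57.4 SD later, so it had made most of its step. PHF8, a histone demethylase, was at 16.8 SD against 20.8 to 37.6 SD, and the growth factor gene PDGFA at 19.3 SD against 22.4 to 44.0 SD. NUDT2, a hydrolase of diadenosine tetraphosphate, and KRT24, a type I keratin, had not left the plastic level: both were under 3 SD at 12 h, with later values of at least 11.8 and 12.3 SD. Among the probes lower on later crECM, EGR3, an immediate early transcription factor, was at 26.9 and 25.4 SD on plastic, at 0.569 SD at 12 h and at no more than 10.1 SD later, and TEX10 was at 87.3 and 78.7 SD on plastic, 24.2 SD at 12 h and 15.99 to 21.7 SD later.

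Over the 477 probes between plastic and later days the median level was 3 SD or less on plastic, 9.58 SD at 12 h, 16.2 SD on day 1 and 13.7 to 19.1 SD over the later arrays. Day 1 held the lowest later value for 23 of them (4.82%) and day 7 for 206 (43.2%), against 8.78% and 40.7% of the other probes higher on later crECM. These probes were chosen as lower at 12 h than on every later array, so a rise from 12 h to day 1 was fixed by that choice. The median level of day 1 lay within the 13.7 to 19.1 SD of days 2 to 9. Without the day 7 array, which had the lowest raw median of the later arrays, the share of probes at or past the later range at 12 h was 52.0% and not 60.7%.

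Gene lists of processes that replating could touch were then compared by their median difference, beside the median of -0.01 over the 13877 genes tested (152 called higher and 185 lower). Most lists had a median near 0 and 0 to 2 called members. Some of these small medians still lay outside the range of single later arrays. Metallothionein and NRF2 genes stood at -0.23, against -0.16 to 0.17 on single later arrays, and oxidative phosphorylation genes at -0.17 against -0.12 to 0.20. Olfactory and taste receptors stood at 0.20 against -0.08 to 0.09. The largest shift was that of the list of cytosolic ribosomal proteins, whose median difference was -0.78 over 46 genes. Of these, 38 were lower and 8 higher at 12 h, 31 lay below all 8 later arrays and none above, and 33 lay below both plastic arrays. Of all genes tested, 18.6% lay below all later arrays at 12 h and 21.3% above. The list's median on single later arrays ranged from -0.17 to 0.30 around the later mean, and on the plastic arrays it was -0.52 and -0.54. Only RPL18 was called, and its call was lost in 4 of 19 alternatives: rebuilt values, cyclic loess and the omission of day 2 or day 3.

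**Figure D4:**
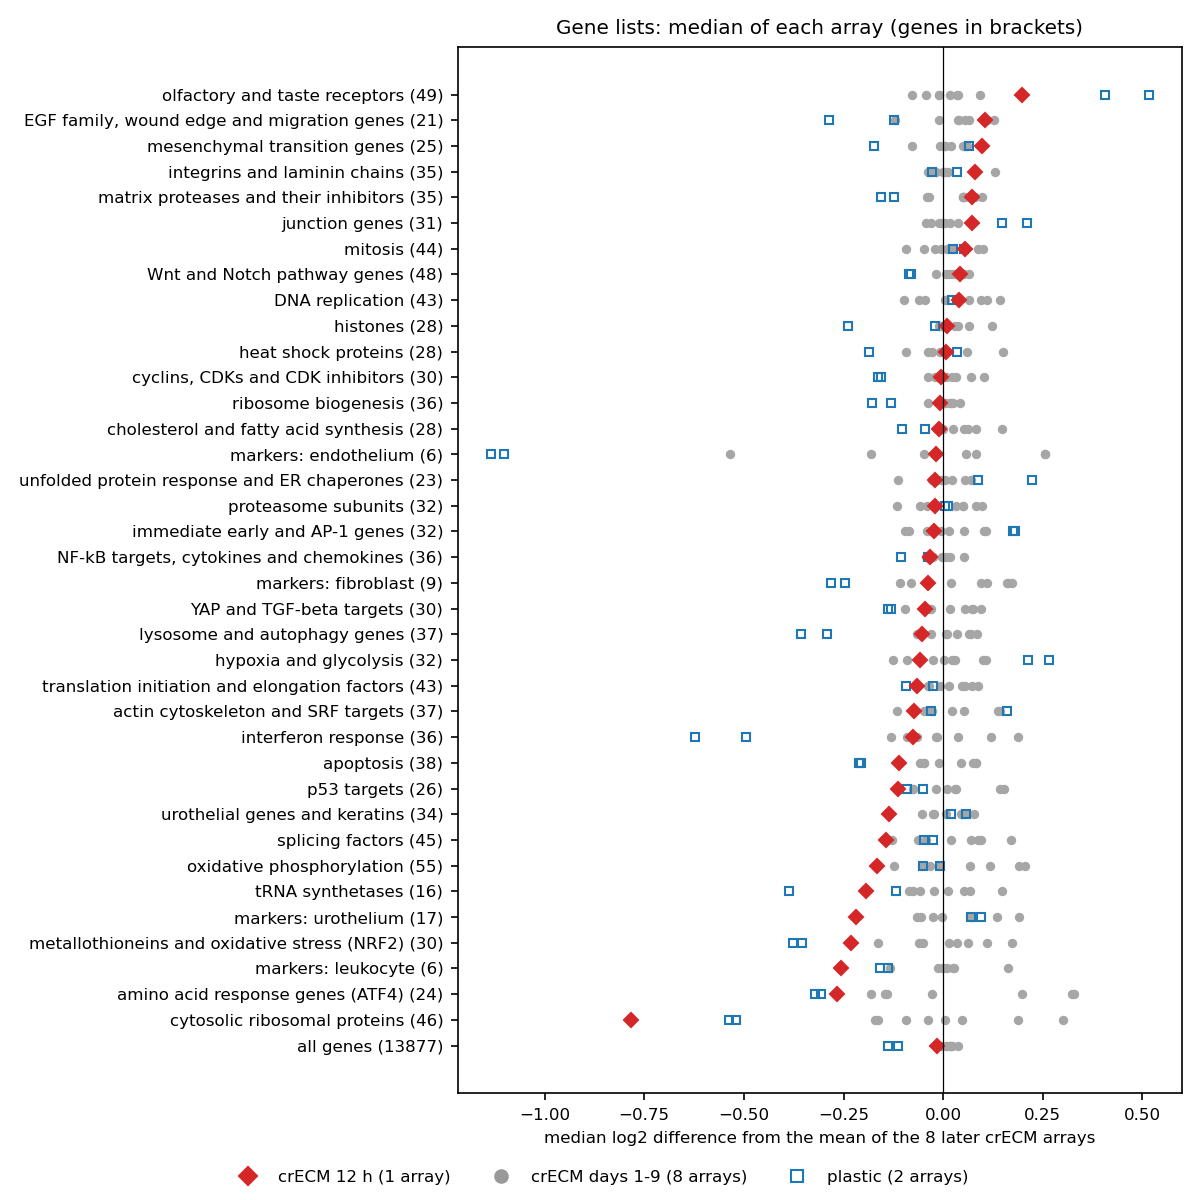
Median log2 difference from the mean of the 8 later crECM arrays (horizontal axis) of each gene list (rows, number of genes in brackets) for the 12 h array (red), each later array (gray) and each plastic array (blue squares). The ribosomal protein list stood at -0.78 at 12 h, outside the -0.17 to 0.30 of the later arrays, whereas all genes together stood at -0.01.

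The ribosomal protein genes are shown with the first bases of their transcripts, because many such genes start transcription at a C that is followed by a run of pyrimidines, the terminal oligopyrimidine (TOP) tract through which translation of their mRNAs is regulated. The windows run over 12 bases before the start site and 18 bases from it on, 5′ to 3′, from RefSeq with build GRCh38.p14, and capitals mark the pyrimidine run that begins at the start site. The 6 genes with the lowest 12 h difference are given first, and GAPDH and TUBA1B, which are bright and lack the run, for comparison.
RPS18, chr6:33272063-33272092, plus strand: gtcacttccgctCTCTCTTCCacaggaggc
RPL35A, chr3:197950178-197950207, plus strand: cggggcctcgtcCTTCTCTTaccgccatct
RPL32, chr3:12841548-12841577, minus strand: ttacgacccatcagcccttgcgcgccaccg
RPL18, chr19:48619161-48619190, minus strand: ccagcccgttctCTCTTTCCggacctggcc
RPS14, chr5:150449722-150449751, minus strand: ccccctcccactCTCTCTTTCCggtgtgga
RPS23, chr5:82278337-82278366, minus strand: tgcggtgcttctCTCTTTCgctcaggcccg
GAPDH, chr12:6535252-6535281, plus strand: gggtgcatccctgtccggatgctgcgcctg
TUBA1B, chr12:49131378-49131407, minus strand: cggccccgccctagtgcgttacttacctcg
A start with a C followed by at least 4 pyrimidines was found, on the transcribed strand at the first listed start, in 32 of the 42 ribosomal protein genes of the list that had an entry (76.2%), and in 4.04% of the 27305 genes with an entry. It was as frequent in the 27 bright members (74.1%) as in the 15 others (80.0%). RPL32 has no run at its first listed start.

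The shift lay mostly in the bright members, with RPL35A, at 11.5 SD against 15.8 to 83.9 SD later (-1.39 ± 0.65, adjusted p = 0.28), the dim member with the largest difference. RPS18, of the small subunit, was at 181 SD at 12 h against 368, 522 and 718 SD later (lowest, median and highest) and 230 and 216 SD on plastic (difference -1.48 ± 0.77, adjusted p = 0.35). RPL32, of the large subunit, was at 156 SD against 315 to 489.7 SD later and 162 and 166 SD on plastic (-1.27 ± 0.49, adjusted p = 0.20). RPL18 was at 81.3 SD against 161 to 246 SD later and 122 and 123 SD on plastic (-1.23 ± 0.27, adjusted p = 0.035). RPS14, RPS23 and RPS25 had 139, 146 and 136 SD at 12 h, with lowest later values of 253, 280 and 229 SD. All 29 members with a later mean of 64 SD or more were lower at 12 h, 27 of them below all later arrays, with a median of -0.98. The later mean is 1 side of this difference, so the split was repeated, after the data were seen, on the mean of the plastic arrays: of 30 members at 64 SD or more there, 29 were lower and 27 below all later arrays (median -0.95), and the other 16 had a median of -0.09. The 17 dimmer members had a median of -0.04, with 8 higher and 9 lower. RPL10, RPS16 and RPS15, for example, differed by -0.04, 0.03 and 0.07. The genes outside the list with a later mean of 64 SD or more were lower as well, 156 of 188, but by less, with a median of -0.33 and 74 below all later arrays. These 2 groups were not matched in level: the median later level was 240 SD for the 29 ribosomal members and 79.9 SD for the 188 others. The part of level in this contrast was not tested. Split by plastic, the other bright genes numbered 232, of which 138 were lower and 55 below all later arrays, with a median of -0.12. Among them KRT19 was at 199.9 SD against a later median of 339 SD, and EEF2, the elongation factor that moves the ribosome along the mRNA, at 111 SD against 217 to 414 SD (-1.43 ± 0.41, adjusted p = 0.084).

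**Figure D5:**
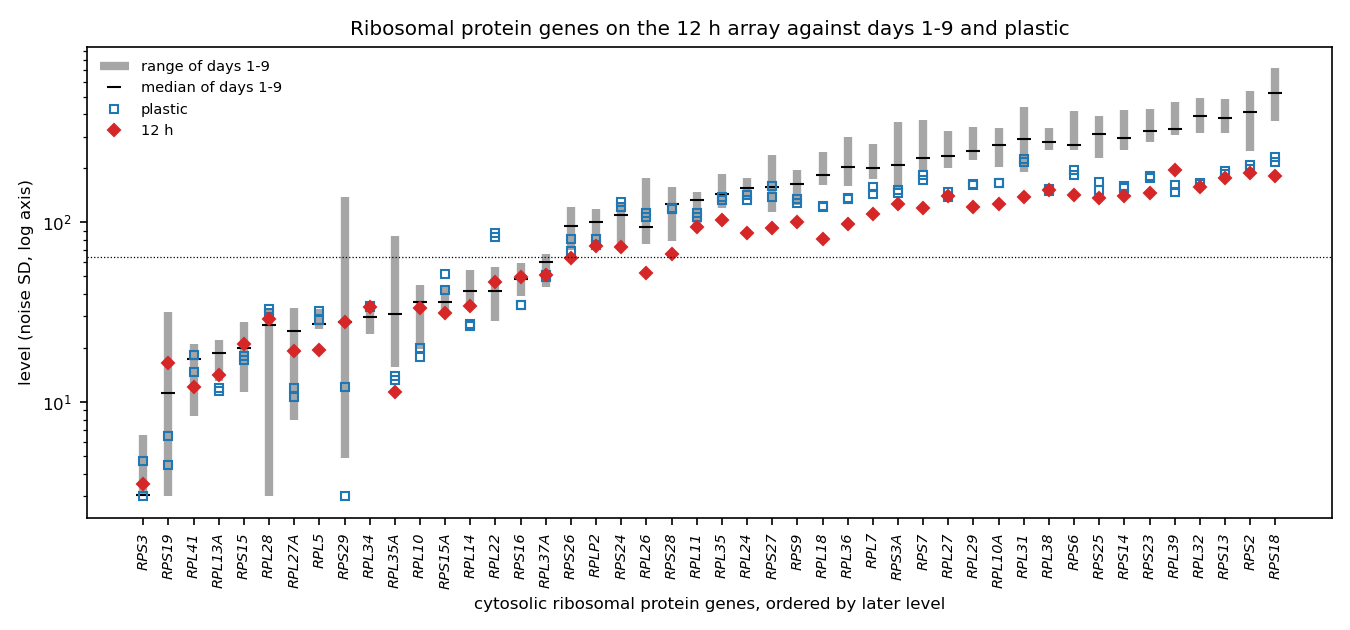
Level (noise SD of the deposited scale, log axis) of 46 cytosolic ribosomal protein genes, ordered by later level, at 12 h (red), as the range (gray bars) and median (black dashes) of the 8 later crECM arrays, and on plastic (blue squares). The dotted line is at 64 SD. Above that line every gene was lower at 12 h than the later mean, and 27 of 29 lay below the whole later range.

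The authors adjusted the arrays to each other by regression, which stretches each array by its own slope, so the ribosomal shift was recomputed on other scales. With values rebuilt from raw intensities all probes together shifted by -0.39 and the bright ribosomal members by -0.74, which is -0.35 relative to all probes, while the other bright genes were at 0.04 relative to all probes. After quantile normalization the bright members stood at -0.71 and the other bright genes at -0.36, and after cyclic loess, which removes level-dependent shifts, at -0.21 and -0.05. All 29 bright members remained lower under each of these scales except cyclic loess, where 26 did and only 3 lay below all later arrays. The size of the shift therefore depended on the scale, and its sign did not in any of the 5 scalings.

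Genes spotted 17 times give the spread between spots of 1 array. This set was chosen after its values were seen. RPS9, of the small subunit, had 16 tested spots, and all 16 lay below all later arrays at 12 h, with differences from -1.07 to -0.53 and a median of -0.89. Its median level was 74.3 SD at 12 h against 118 to 169.8 SD later and 126 and 122 SD on plastic. RPL5, of the large subunit, had a median of -0.67 over 14 spots, with levels of 14.6 SD at 12 h and 21.1 to 28.1 SD later. TUBA1B, an alpha-tubulin, differed by 0.09 to 0.35 over its 17 spots, and LDHA, of glycolysis, by -0.26 to 0.16 over 10 spots. TUBA1B was nevertheless not steady over days: its median spot was at 55.7 to 68.1 SD on days 6 to 8 and at 181 to 346 SD on the other later days, with 176 SD at 12 h. GAPDH, another glycolytic enzyme, was at 293 SD at 12 h and between 211 and 717 SD later (median difference -0.63), inside its later range. Falls were not limited to ribosomal proteins. EIF4A2 had a median of -0.23 over 13 spots, and its 4 spots with a later mean of 64 SD or more, at -0.68 to -0.59, all lay below all later arrays. CYC1 had a median of -0.40 over 14 spots, at 17.2 SD against 17.3 to 29.2 SD later. NUP62 went the other way, with a median of 0.29 over 17 spots. Other genes varied more between spots, from -0.37 to 1.75 for H2BC21, a histone, and from -1.31 to 0.34 for HSPA1A, an Hsp70 chaperone, and the spots of RPL5 ran from -1.23 to -0.16. The spots of 1 array say nothing of the spread between cultures.

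Lists of other translation components, and those of oxidative phosphorylation, splicing and the proteasome, had medians nearer to 0 than the ribosomal proteins. The list of translation initiation and elongation factors had a median of -0.07 over 43 genes with none called (EIF3G, at -0.995, missed the 2-fold limit), and ribosome biogenesis genes one of -0.01 over 36, with DKC1, the pseudouridine synthase dyskerin, called higher (7.68 SD at 12 h, from 7 of 8 later values below 3 SD). DKC1 lost its call with a floor of 1 SD. The medians were -0.19 for 16 tRNA synthetases, -0.17 for 55 oxidative phosphorylation genes and -0.14 for 45 splicing factors, with no gene called in these 3 lists, and -0.02 for 32 proteasome subunits, also without a call.

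Immediate early genes were as often higher as lower at 12 h. Over 32 genes of the list 16 were higher and 16 lower, with a median of -0.02. FOS was at 13.1 SD at 12 h, within the 11.3 to 21.9 SD of later days (difference -0.25 ± 0.40). JUN was at 41.6 SD within 22.7 to 53.4 SD, JUNB at 30.7 SD within 20.7 to 38.0 SD, EGR1 at 20.1 SD within 18.4 to 24.2 SD, and ATF3 at 27.7 SD within 4.48 to 29.5 SD. FOSB lay just under its later range, at 21.5 SD against 23.3 to 38.6 SD (-0.42 ± 0.23, adjusted p = 0.39). MYC was at 20.4 SD, within 19.2 to 37.0 SD. The exception was FOSL1, which encodes the AP-1 subunit Fra-1: it was at 94.9 SD at 12 h against 29.6, 38.5 and 59.4 SD later and 35.3 and 28.3 SD on plastic (1.25 ± 0.27, adjusted p = 0.033), with day 1 the highest later day. This call was lost in 5 of 19 alternatives, among them rebuilt values, quantile normalization and the omission of day 3, 4 or 8. EGR1 was at 37.0 and 35.1 SD on plastic, above every crECM array.

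Matrix and adhesion genes showed single called members within lists whose medians were near 0. TNC, which encodes tenascin-C, a matrix glycoprotein of wound edges, was at 75.5 SD at 12 h against 19.1 to 41.9 SD later and 23.0 and 20.0 SD on plastic (1.40 ± 0.31, adjusted p = 0.037), and a second TNC probe differed by 0.13. TGFB2, a TGF-beta ligand, was at 54.6 SD against 19.4 to 29.5 SD later and 32.3 and 32.1 SD on plastic. SMAD7, which inhibits TGF-beta signaling, was at 14.3 SD against 24.2 to 35.8 SD later and 25.1 and 23.3 SD on plastic (-1.19 ± 0.19, adjusted p = 0.011). LAMA2, a laminin chain, was at 68.4 SD against 11.1 to 28.1 SD, and ADAMTS2, the procollagen N-proteinase, at 14.9 SD against at most 7.47 SD. CTNND1, the p120 catenin that stabilizes cadherins, was lower, at 3.33 SD against 9.10 to 18.2 SD later, near its plastic values of 4.34 SD and noise. Calls were lost in 7 of 19 alternatives for TNC, 8 of 19 for LAMA2, 8 of 17 for ADAMTS2, 3 of 19 for CTNND1 and 1 of 19 for TGFB2, each including rebuilt values, and in none for SMAD7. The medians were 0.11 for 21 EGF family and wound edge genes, 0.08 for 35 integrins and laminin chains, 0.07 for 35 matrix proteases and inhibitors, 0.07 for 31 junction genes, -0.05 for 30 YAP and TGF-beta targets, 0.10 for 25 mesenchymal transition genes and -0.07 for 37 genes of the actin cytoskeleton, in which none was called.

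In the stress lists CEBPB, a transcription factor of the amino acid and inflammatory responses, was at 4.93 SD against 13.3 to 23.1 SD later and 12.0 and 3.81 SD on plastic (-1.95 ± 0.31, adjusted p = 0.011), and its list, the amino acid response, had a median of -0.27 over 24 genes, near the plastic values of -0.32 and -0.31. This list also varied over the later days, from -0.27 on day 3 to 0.33 on day 7. HSPA4, an Hsp110 family chaperone, was at 12.0 SD against 26.3 to 39.2 SD later and 26.9 and 29.1 SD on plastic (-1.45), in a list of 28 heat shock proteins with a median of 0.01. HLA-F was at 6.95 SD against 13.9 to 19.6 SD, close to plastic at 8.13 and 6.47 SD, and with EIF2AK2 made up the 2 called interferon response genes of 36 (median -0.08). FADS1, a fatty acid desaturase, was at 5.06 SD against 12.98 to 26.8 SD later and 17.2 and 19.6 SD on plastic, and TM7SF2 was the other called member among 28 lipid synthesis genes (median -0.01). HLA-F lost its call in 3 of 19 alternatives and FADS1 in 2 of 19, both including rebuilt values and quantile normalization. CEBPB lost its call in 1 of 19, after quantile normalization. Metallothionein and NRF2 genes had a median of -0.23 over 30, in which GCLC alone was called, 23 unfolded protein response genes one of -0.02, and 36 NF-kB targets and cytokines one of -0.03 with none called.

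Cell cycle lists stayed near 0, with medians of 0.04 for 43 DNA replication genes, 0.06 for 44 mitosis genes and -0.01 for 30 cyclins and CDKs. E2F1, a transcription factor of S phase entry, was called higher, at 25.6 SD against at most 3.77 SD later and 6.56 and 4.51 SD on plastic (3.02 ± 0.21, adjusted p = 5.97e-05). In E2F1 6 of 8 later values were below 3 SD and set to that floor, which narrows their spread, and with a floor of 1 SD the adjusted p was 0.045. CCNL1, a cyclin linked to splicing, was at 9.75 SD with 7 of 8 later values below 3 SD, and it lost its call with a floor of 1 SD. XPC, of nucleotide excision repair, was at 8.80 SD against at most 5.47 SD, and PFKFB4, a regulator of glycolysis, at 12.8 SD against 2.19 to 3.88 SD later and 5.72 and 7.30 SD on plastic. XPC and PFKFB4 lost their calls with a floor of 1 SD as well. The medians were -0.11 for 26 p53 targets, -0.11 for 38 apoptosis genes with none called, -0.06 for 32 hypoxia and glycolysis genes, 0.01 for 28 histones and -0.05 for 37 lysosome and autophagy genes, the last 2 also without a call. In the Wnt and Notch list, 48 genes with a median of 0.04, HES1, the Notch effector, was at 6.27 SD against 11.7 to 21.2 SD (-1.41) and WNT11 was below 3 SD against 6.53 to 14 SD. HES1 lost its call in 6 of 19 alternatives and WNT11 in 9 of 19, both including rebuilt values and quantile normalization.

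Urothelial genes gave no call. The list of 34 urothelial genes and keratins had a median of -0.14, and the 17 tested urothelium markers one of -0.22, outside the -0.07 to 0.19 of the later arrays, but after cyclic loess and quantile normalization the markers stood at -0.01 and -0.06 and the list of 34 at 0.00 and -0.02. PPARG came closest, at 24.5 SD at 12 h against 33.1, 36.6 and 43.2 SD later and 39.5 and 48.7 SD on plastic (-0.59 ± 0.15, adjusted p = 0.056). Its 12 h value was the lowest of the 11 arrays. UPK2, a uroplakin, was likewise the lowest of all, at 16.1 SD against 20.1 to 26.7 SD later (-0.51 ± 0.18, adjusted p = 0.16). GATA3 at 39.3 SD, UPK1A at 29.5 SD and the basal keratin KRT5 at 33.9 SD lay within their later ranges of 34.6 to 54.3, 18.3 to 30.3 and 9.25 to 36.7 SD. KRT20 and UPK3A, of the superficial layer, were below 3 SD at 12 h, with later medians of 1.98 and 5.05 SD. Among 49 olfactory and taste receptors, which epithelial cells are not known for, the median was 0.20 and 21 lay above all later arrays, against 2961 of all 13877 genes, and OR4D2 was called (35.9 SD against a later median of 17.8 SD). Plastic stood at 0.41 and 0.52 for this list. With values rebuilt from raw intensities the list turned to -0.21, which is above the -0.39 of all probes on that scale.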

How the data were processed

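RNA of RT4 cells was hybridized as Cy3-labeled cDNA to 1-color spotted arrays, 2 from plastic and 9 from crECM. Per the study's methods and the file headers, the authors expressed each spot in SD of the array's noise peak, as log10, and then regressed array on array to bring all of them to 1 scale. These deposited log10 values were the main data. The deposited raw intensities, some of them negative, served for the alternative scales and spot checks only. The scanner software is not given in the sources used here.

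Values were converted to log2 with a floor of 3 SD of the deposited scale. The 12 h array was compared with the 8 later arrays in limma 3.58.1 (lmFit and eBayes with a variance trend, R 4.3.3), with Benjamini-Hochberg adjustment over 20075 probes. The fit has 1 array at 12 h. Calls needed an adjusted p under 0.05, a 2-fold difference and a value outside the later range. Arrays give no read depth, and their number limits the precision. Of 22464 probes, 17043 had 1 symbol, 172 several and 5249 none, from GEO's platform annotation, with 16952 matched by gene identifier. In lists each gene was represented by its probe with the highest mean over the 9 crECM arrays. The slide position was read from the probe number, taken as block, row and column.

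Named genes were the 8 largest called differences in each direction, the 6 largest of each class, up to 2 called genes per direction and list, and 16 fixed genes, of which 14 had a tested probe (FOS, FOSB, JUN, JUNB, EGR1, ATF3, MYC, the uroplakins, PPARG, GATA3, KRT5, KRT20 and MKI67). UPK1B and MKI67 were among these 16 and had no tested probe. The members and lists were chosen with earlier results of these data known. The procedure was tested on simulated data with normally distributed noise and no effects of slide position or scale. Of the simulated 2-fold changes 36% were recovered, of the 4-fold changes 84% and of the 16-fold changes 90%. Alternatives covered the scale, floor, filter, fit, fold and each array left out.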

Additional observations from a re-analysis of the deposited data

Results flagged for a closer look

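Among the 61 named genes, 11 had 1 later crECM array far from the other 7 by Dixon's test at the 95% level, which chance alone gives in about 1 in 20 groups. On day 1, HOOK3 and RAB11FIP3 were high, at 33.2 and 39.0 SD, between their 12 h levels and the remaining days, and KRT5 was low, at 9.25 SD. TBCK was at 3.73 SD on day 2, its single later value above 3 SD. ATF3 was low on day 3, at 4.48 SD, and KRT20 high on day 6, at 3.99 SD. Day 7 held the high values of CCNL1 (3.17 SD), DKC1 (3.33 SD) and XPC (5.47 SD) and the low value of MYC (19.2 SD). SMAD7 was low on day 9, at 24.2 SD, still above its 12 h level of 14.3 SD. Values under 3 SD had been set to 3 SD, so for TBCK, CCNL1, DKC1 and XPC, whose other 7 values were all under that limit, the gap equals the whole range by construction and the test carries no weight.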

How the results depend on the processing

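The scale of the arrays mattered most. With values rebuilt from raw intensities, which shifted the median of all probes to -0.39, 86 probes were called higher, all 86 of them peaks and 0 between, dips numbered 17 and 133 probes called lower lay between, while 54.8% of the probes higher and 100% of those lower on later crECM were at the later level at 12 h. JUN (-0.12), JUNB (-0.33), ATF3 (-0.022) and UPK1A (-0.12) changed sign there, and none of the 4 was called. Quantile normalization gave 103 probes called lower, 59 dips, 4 between among those called lower and JUNB at -0.017. Cyclic loess gave 10 and 12 probes between among those called higher and lower, 68.0% at the later level, JUNB at -0.013 and KRT20 at 0.11. A floor of 1 SD gave 156 probes called higher with 2 between, a floor of 5 SD 63.2% at the later level, a filter of at least 4 later arrays 2 between among those called higher, and no filter 15. Calls at 3-fold numbered 131 higher and 158 lower, with 108 peaks, 67 dips and 3 and 14 between. For each of these the cause was not tested. In alternatives chosen after seeing the data, leaving out called neighbors gave 147 called lower, 41 dips and 27 between, and leaving out probes far below the noise peak or with disagreeing raw values kept 232 called higher in each case and 270 and 291 called lower.

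Leaving out 1 array at a time gave 180 to 253 probes called higher, 214 to 411 lower, 5 to 8 between among those called higher and 21 to 85 among those called lower. The lowest of the last came without day 2 and the highest without day 7, with 28 without day 1 and 30.0 without day 8. The percent at the later level ran from 52.0 without day 7 to 62.3 for probes higher and from 71.4 to 74.5 for probes lower on later crECM. JUNB ranged from -0.043 without day 4 to 0.082 without day 7. Over all alternatives the named genes' differences passed the threshold less often than in the results above in 152 cases, most often for TM7SF2 (12 of 19), OR4D2 (11 of 19), HOOK3 (10 of 18) and XPC (10 of 16). No paired analysis was possible because each crECM time point had 1 array. A single array at 12 h limits every value.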
